A study of Mus musculus with 12 samples.

Results

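The subject here is a set of 10 mouse genes of cholesterol efflux and of the liver X receptors (LXR), taken by symbol from a count table of 46078 genes. The genes are Nr1h3, Nr1h2, Abca1, Abcg1, Abcg4, Pltp, Mylip, Soat1, Ch25h and Cyp27a1. All 10 were found in the table and all 10 passed the filter on low counts. Poly(A) RNA from mouse spinal cord was sequenced in 12 libraries, 3 in each of 4 groups, from hosts of strain C57BL6/cJ. The groups were non-injured cord, cord after spinal cord injury (SCI) alone, SCI with a transplant of syngeneic mesenchymal stromal cells (MSC), and SCI with allogeneic MSC. The labels for SCI alone name no control procedure. Neither the time after injury nor the donor strain is stated in the labels. Nor is it stated that the 3 libraries of a group came from different mice, so p-values measure only the spread between these samples. Because bulk cord was sequenced, a change in the number of cells of a type and a change in RNA per cell cannot be told apart in any result given here.

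LXRα, encoded by Nr1h3, and LXRβ, encoded by Nr1h2, are nuclear receptors that bind oxysterols and, paired with a retinoid X receptor, raise transcription of genes that remove sterol from the cell. Abca1 and Abcg1 move cholesterol out of cells onto lipoprotein particles, and Mylip is a ubiquitin ligase that acts on lipoprotein uptake. The opposing SREBP2 pathway makes and takes up cholesterol when cell sterol is low. In injured nervous tissue, microglia and macrophages take up myelin, which is rich in cholesterol.

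Library totals ran from 8705942 counts (allogeneic replicate 2) to 26151928 counts (non-injured replicate 1). Principal component 1 of all tested genes held 59.9% of the variance. On it the non-injured libraries lay at 66.6 to 80.5, SCI at -39.0 to -29.6, and the syngeneic libraries at 12.9, 27.2 and -27.4, so that syngeneic replicate 3 stood with the SCI libraries. Allogeneic libraries lay at -57.0 to -24.9. Non-injured replicate 3 stood apart from the other two on component 2 (-56.2 against 14.6 and 15.5). Values that these libraries decide are given with and without them. None of the oligodendrocyte, neuron or astrocyte markers was at 0 in these libraries. The same held for the microglial, endothelial and fibroblast markers, so these counts cannot check tissue identity, which was not tested.

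On GRCm38, with annotation from GENCODE M21, Nr1h3 (ENSMUSG00000002108) lies at chr2:91184061-91202834 on the minus strand and Nr1h2 (ENSMUSG00000060601) at chr7:44549616-44553951, also minus. Abca1 (ENSMUSG00000015243) spans chr4:53030787-53159895 on the minus strand and Abcg1 (ENSMUSG00000024030) chr17:31057675-31117988 on the plus strand. Abcg4 (ENSMUSG00000032131) lies at chr9:44273188-44288615, minus, and Pltp (ENSMUSG00000017754) at chr2:164839518-164857711, minus. Mylip (ENSMUSG00000038175) lies at chr13:45389742-45412022, plus, and Soat1 (ENSMUSG00000026600) at chr1:156424525-156474331, minus. Ch25h (ENSMUSG00000050370), a gene of 1 exon, lies at chr19:34473778-34475164, minus, and Cyp27a1 (ENSMUSG00000026170) at chr1:74713574-74737892, plus. The labels do not state which features were counted. By this annotation, 3 of the 10 genes share exonic bases with a neighbour. Pltp shares 495 bases with Ctsa on the opposite strand, Ch25h shares 159 with Gm26902 on the opposite strand, and Nr1h3 shares 34 with Gm13783 on its own strand. Whether the counting used strand is not given in the sources used here, so reads over the shared bases of Pltp and Ch25h are uncertain.

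The promoters of Abca1 and Ch25h are shown because of the 10 genes these 2 had the largest log2 fold changes after injury. RefSeq promoters of 300 bases (250 before to 50 after the start) were available for 8 of the 10 genes on GRCm38.p6, and Abcg1 and Abcg4 are named only. Both strands were searched for the LXR element, 2 copies of the half-site AGGTCA in direct repeat with 4 bases of any kind between them, scored by its 12 fixed letters. In each sequence the capitals mark the best match as it reads on the gene's strand. The 250 bases before the start are printed, at chr4:53159896-53160145 for Abca1 and chr19:34475149-34475398 for Ch25h, both on the minus strand.

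Abca1 promoter: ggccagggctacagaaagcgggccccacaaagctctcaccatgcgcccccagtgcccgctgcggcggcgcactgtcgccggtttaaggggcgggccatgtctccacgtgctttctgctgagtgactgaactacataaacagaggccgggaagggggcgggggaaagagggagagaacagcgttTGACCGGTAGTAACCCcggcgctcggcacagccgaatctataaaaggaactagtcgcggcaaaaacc
Ch25h promoter: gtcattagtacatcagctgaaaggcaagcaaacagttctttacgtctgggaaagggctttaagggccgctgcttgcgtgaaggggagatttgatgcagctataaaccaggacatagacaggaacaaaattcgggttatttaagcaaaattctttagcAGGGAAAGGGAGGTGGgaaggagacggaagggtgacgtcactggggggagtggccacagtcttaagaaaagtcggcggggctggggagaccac

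The best site of the Abca1 promoter matched 9 of 12 letters, began at -67 and lay on the strand opposite to the gene. Of 32851 promoters of the same length, 21.9% held a match at least as good. The best site of the Ch25h promoter matched 8 letters at -93, and 76.9% of promoters held a match at least as good. The aligned sites follow, with letters of the repeat in capitals. Soat1 had 2 equally good sites, Cyp27a1 had 5 and Pltp had 4, and only the first by position is shown. The Mylip site began at 29 bases after the start.

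Abca1: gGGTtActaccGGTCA
Nr1h3: AGGTCccggcAcGgCc
Nr1h2: AGtTCcggaaAGtTCt
Ch25h: AGGgaAagggAGGTgg
Soat1: AGGaCcaccaAtGgCA
Cyp27a1: AGagCtccctAGtTCA
Mylip: AGtTCccgggAGcTac
Pltp: AGGaaActgagGcTCc

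Nr1h3, Nr1h2, Soat1 and Cyp27a1 matched 8 letters like Ch25h, while Mylip and Pltp matched 7, which 99.8% of promoters did. The exact repeat stood in 5 promoters of the whole set (0.0152%), and the half-site AGGTCA, present in 16.3% of promoters, was in none of these 8. These matches describe letters in this window and say nothing of binding.

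After injury, 5 of the 10 genes rose, while neither LXR gene passed the test. Abca1, Abcg1, Mylip, Ch25h and Soat1 were higher in SCI than in non-injured cord at an adjusted p under 0.05 (edgeR quasi-likelihood test, Benjamini-Hochberg over 16527 genes), which is 5 of 10 genes, against 16.6% of all tested genes called higher. None was lower, against 9.26% of all genes. The median log2 fold change of the 10 was 0.71, against 0.01 for all genes tested. Levels are given as CPM, counts relative to library totals that were scaled by the trimmed mean of M-values.

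The receptors are described first. Nr1h3 stood at 3.25, 4.68 and 5.49 CPM in the non-injured libraries and at 7.72, 6.92 and 5.44 in SCI. The groups overlapped only through non-injured replicate 3. The log2 fold change of 0.59 (SE 0.26, 95% interval 0.024 to 1.15) had an edgeR adjusted p of 0.116. Without that library it was 0.75, with an edgeR adjusted p of 0.0837. Nr1h2 stood at 49.6, 42.7 and 42.4 CPM in non-injured cord and at 43.4, 47.1 and 43.9 in SCI, a log2 fold change of -0.0022 with a 95% interval from -0.19 to 0.19. Per kilobase of exon, the Nr1h2 level was 5.79 to 11.4 times that of Nr1h3 in the non-injured libraries and 4.22 to 6.05 times in SCI. LXRβ was thus the more abundant receptor transcript in all 12 libraries, with the ratio per kilobase ranging from 5.53 to 8.05 in syngeneic and 4.58 to 7.69 in allogeneic libraries.

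Abca1, the exporter that loads cholesterol onto lipid-poor apolipoproteins, stood at 39.7, 39.9 and 38.9 CPM in non-injured cord. In SCI it stood at 393, 519 and 375 CPM. Every injured library lay above every non-injured one, and the log2 fold change was 3.44 (SE 0.38, edgeR adjusted p = 0.00019), a fold of 6.08 to 19.4 over its 95% interval. Abcg1, which exports sterol to mature lipoprotein particles, stood at 56.5, 52.5 and 54.6 CPM against 88.7, 106 and 82.3 in SCI. It rose by 0.76 on the log2 scale (SE 0.18, edgeR adjusted p = 0.0113), and the libraries did not overlap; without SCI replicate 2 its adjusted p was 0.0555. Abcg4, a relative of Abcg1 known from neurons and astrocytes, stood at 63.0, 60.6 and 35.3 CPM against 48.5, 48.1 and 42.2. Its groups overlapped, with non-injured replicate 3 the lowest of its group (log2 fold change -0.19, edgeR adjusted p = 0.60; -0.43 and 0.139 without that library).

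The exporters were also compared with each other within each library. Per kilobase, Abca1 was 0.494 to 0.535 times Abcg1 in the non-injured libraries and 3.12 to 3.45 times in SCI. In the allogeneic libraries the ratio was 2.84 to 3.03, and in the syngeneic ones it spread from 1.20 to 2.62. The ratio of Abcg1 to Abcg4 was 0.619 to 1.11 in non-injured cord and 1.31 to 1.57 in SCI. It spread from 1.19 to 2.44 in the allogeneic libraries and from 0.771 to 1.48 in the syngeneic ones. No test was run on these ratios.

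**Figure D1:**
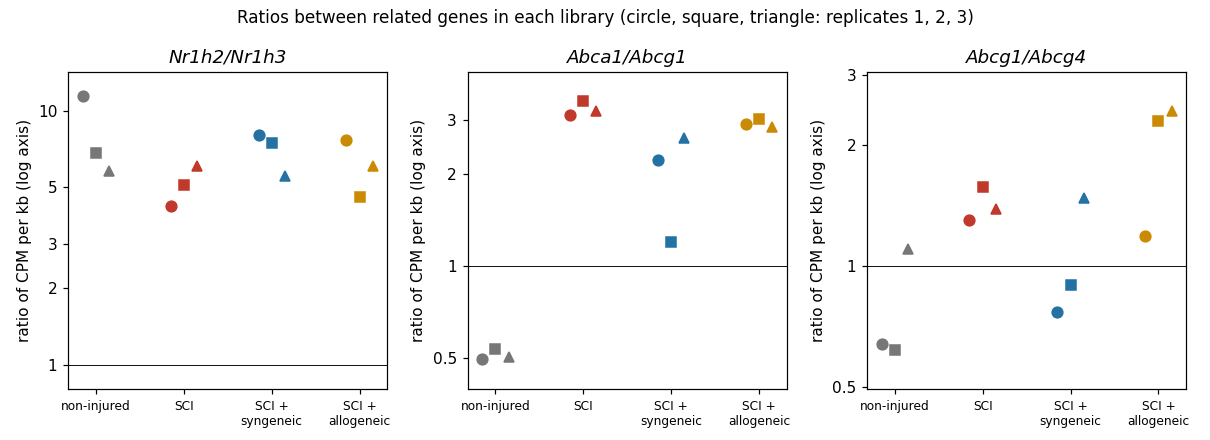
Ratios of CPM per kilobase of exon on a log axis for Nr1h2/Nr1h3, Abca1/Abcg1 and Abcg1/Abcg4, 1 point for each of 12 libraries, by group. The Abca1/Abcg1 ratio lies between 0.494 and 0.535 in non-injured cord and between 1.20 and 3.45 in all injured libraries.

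Pltp, which transfers phospholipids between lipoproteins, stood at 100.7, 100.4 and 152 CPM in non-injured cord and 210, 187 and 159 in SCI. The groups did not overlap, yet the log2 fold change of 0.66 (SE 0.26) had an edgeR adjusted p of 0.0891. Without non-injured replicate 3, the highest of its group, it was 0.87 with an adjusted p of 0.0493. Ctsa, which shares exonic bases with Pltp, rose by 1.39 on the log2 scale (edgeR adjusted p = 0.00440), and its part in the Pltp value was not tested. Of the 10 genes, 6 had libraries that did not overlap and were higher in SCI, against 26.3% of all genes.

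Mylip, the ubiquitin ligase, stood at 7.23, 9.93 and 9.43 CPM and rose to 40.0, 39.1 and 32.4 in SCI (log2 fold change 2.07, SE 0.30, edgeR adjusted p = 0.000664). Soat1, which esterifies cholesterol for storage, stood at 54.4, 50.8 and 51.8 CPM and rose to 111, 114 and 104 (1.07, SE 0.19, edgeR adjusted p = 0.00209). In both genes every SCI library lay above every non-injured one.

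Ch25h, which makes an oxysterol from cholesterol, was close to the limit of detection in non-injured cord, with 4, 9 and 19 counts (0.155, 0.562 and 0.974 CPM). In SCI it stood at 9.44, 11.8 and 13.3 CPM. Its log2 fold change was 4.40 (SE 0.54, edgeR adjusted p = 0.000308), a fold of 9.28 to 48.2 over the 95% interval. Without non-injured replicate 3, the highest of its group, the log2 fold change was 5.12 (edgeR adjusted p = 0.000732). The neighbour Gm26902 had 8 to 40 counts in non-injured cord and 24 to 38 in SCI, and was not called (adjusted p = 0.158). Cyp27a1, a mitochondrial enzyme that makes another oxysterol, stood at 42.3, 39.4 and 78.3 CPM against 38.0, 32.1 and 39.8. The log2 fold change of -0.54 (SE 0.26) had an edgeR adjusted p of 0.145, and non-injured replicate 3 was the highest of all 12 libraries. Without it the log2 fold change was -0.18 (adjusted p = 0.562).

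Per kilobase the order of mean levels changed. In non-injured cord Pltp was highest at 46.0 CPM per kb, followed by Cyp27a1 (24.6), Nr1h2 (13.4), Abcg4 (10.2), Abcg1 (7.47), Soat1 (5.35), Abca1 (3.81), Mylip (2.74), Nr1h3 (1.78) and Ch25h (0.406). In SCI, Abca1 stood second at 41.4 CPM per kb after Pltp (72.4). Ch25h, at 8.29, stood above Nr1h3 (2.66).

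**Figure D2:**
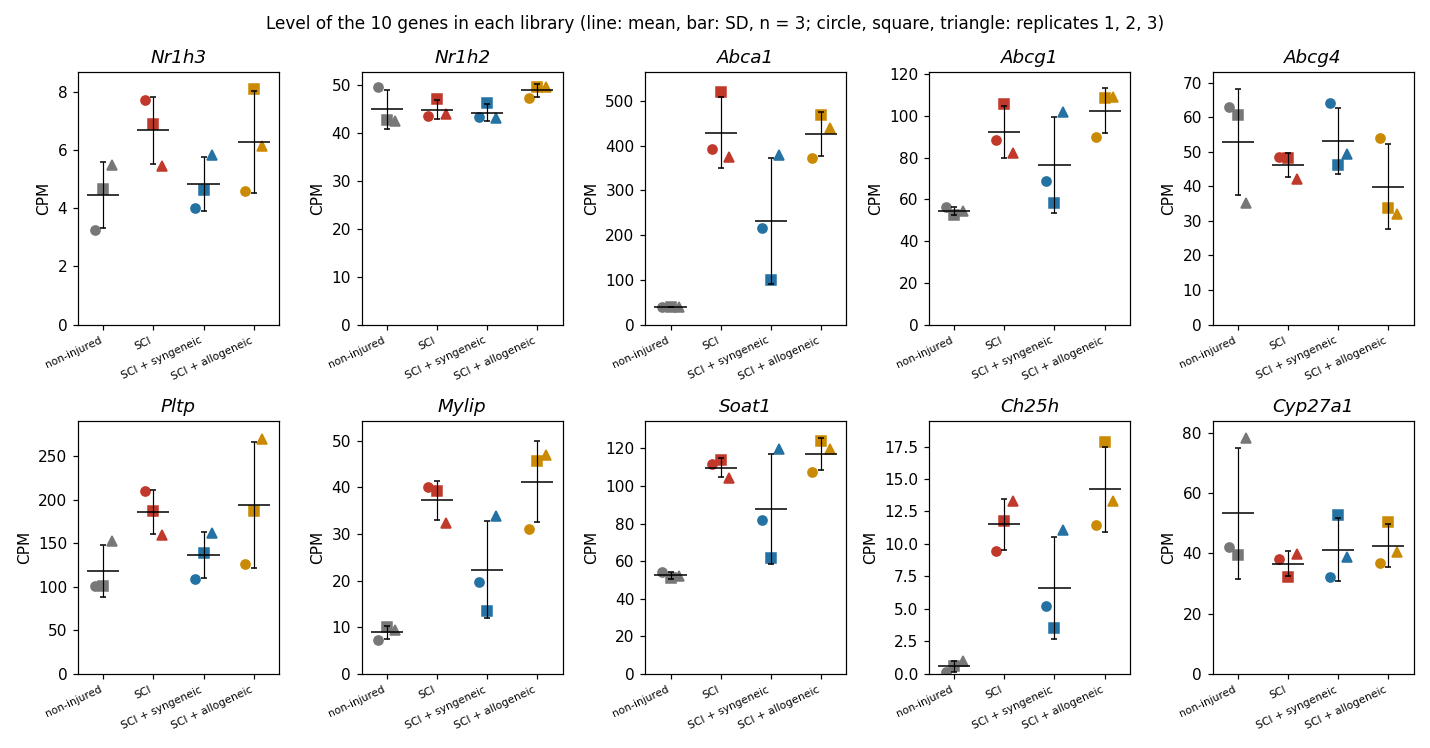
CPM of each of the 10 genes in the 12 libraries by group, with the mean (line) and SD (bar, n = 3) on linear axes from 0. Abca1 lies between 38.9 and 39.9 CPM in non-injured cord and between 98.7 and 519 CPM in the injured libraries.

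The transplant comparisons ask whether syngeneic or allogeneic MSC changed these genes in injured cord. In syngeneic against SCI, none of the 10 genes was called by edgeR, against 0.0363% of genes; limma-voom and DESeq2 also called none. Abca1 and Mylip (2 of 10) were under an unadjusted p of 0.05, as were 13.5% of all genes, with a smallest adjusted p of 0.322. Abca1 stood at 217, 98.7 and 379 CPM, a log2 fold change of -0.89 (95% interval -1.65 to -0.13). Mylip stood at 19.6, 13.5 and 33.9 CPM (-0.74). Soat1 stood at 81.9, 61.9 and 120 CPM (-0.32), Abcg1 at 69.1, 58.1 and 102 (-0.27), and Ch25h at 5.24, 3.51 and 11.05 (-0.82). In all 5 genes, syngeneic replicates 1 and 2 were the lowest of the 9 injured libraries, and replicate 3 ranked between 4 and 8 from the bottom. The share of all tested genes with this order was not counted. On principal component 1 of all tested genes, these 2 libraries (12.9 and 27.2) also lay apart from the other injured ones (-57.0 to -24.9).

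The call turned on syngeneic replicate 3. Without it, 4 genes were lower than SCI, against 4.76% of genes called lower. Their log2 fold changes were -1.48 for Abca1 (edgeR adjusted p = 0.0195), -1.20 for Mylip (0.0195), -0.64 for Soat1 (0.0231) and -0.57 for Abcg1 (0.0451). Nr1h3 (4.02, 4.62 and 5.85 CPM), Nr1h2 (43.2, 46.2 and 43.1), Abcg4 (64.0, 46.2 and 49.3), Pltp (109, 139 and 162) and Cyp27a1 (32.1, 52.7 and 38.9) did not have syngeneic replicates 1 and 2 as the lowest pair.

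For the genes called higher in SCI than in non-injured cord, allogeneic libraries lay near the SCI libraries. None of the 10 genes was called by edgeR, limma-voom or DESeq2, none had an unadjusted p under 0.05 (2.94% of all genes did), and 0.188% of all genes were called. Abca1 stood at 372, 468 and 440 CPM, a log2 fold change of -0.0084 with an interval from -0.77 to 0.75. Abcg1 stood at 90.0, 109 and 109 CPM, Mylip at 31.1, 45.7 and 46.8, Soat1 at 107, 124 and 120, and Ch25h at 11.5, 17.8 and 13.3. Nr1h2 stood at 47.2, 49.6 and 49.6 CPM, above every SCI library (0.12, adjusted p = 0.9999), where 4.2% of genes had libraries above SCI without overlap.

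Syngeneic against allogeneic likewise gave no edgeR call among the 10 genes, nor one by limma-voom or DESeq2, against 0.611% of genes, with 5 under an unadjusted p of 0.05 (14.4% of all genes). The log2 fold changes were -1.12 for Ch25h, -0.89 for Mylip, -0.88 for Abca1, -0.43 for Abcg1 and -0.41 for Soat1, with a smallest adjusted p of 0.237. The syngeneic libraries of Ch25h and Nr1h2 all lay below the allogeneic ones, as in 7.03% of genes. Without syngeneic replicate 3, these 5 genes were called lower, with 6.73% of genes lower, with log2 fold changes from -1.74 for Ch25h (edgeR adjusted p = 0.0243) to -0.74 for Abcg1 (0.0136).

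**Figure D3:**
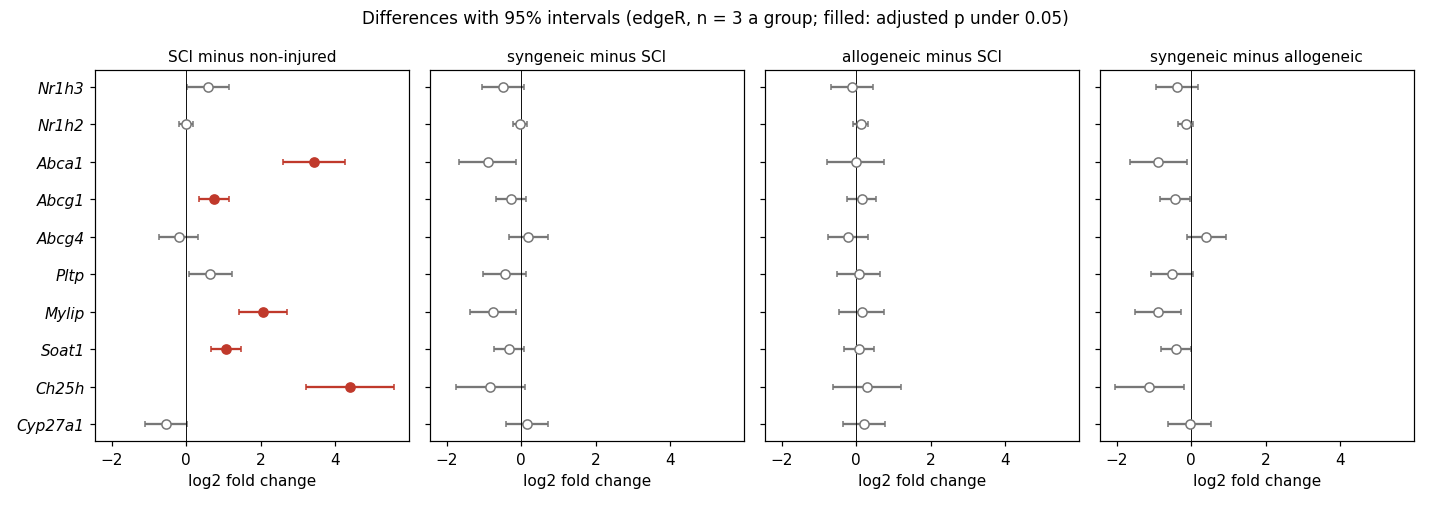
Log2 fold changes of the 10 genes with 95% intervals (edgeR, n = 3 a group) in 4 comparisons, filled where the adjusted p was under 0.05. In SCI minus non-injured, 5 points are filled; in the other 3 panels none is.

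Against non-injured cord, the same 5 genes were called higher with allogeneic MSC (5 of 10, with 16.7% of genes called higher) and 4 of them with syngeneic MSC (4.92% of genes called higher). With allogeneic MSC the log2 fold changes were 4.70 for Ch25h, 3.43 for Abca1, 2.22 for Mylip, 1.16 for Soat1 and 0.91 for Abcg1. With syngeneic MSC they were 3.58 for Ch25h (adjusted p = 0.00323), 2.55 for Abca1 (0.00269), 1.33 for Mylip (0.0219), 0.74 for Soat1 (0.0397) and 0.48 for Abcg1 (0.169). In these 5 genes every syngeneic library lay above every non-injured one, as in 13.7% of all genes. With allogeneic MSC, Pltp (0.72, edgeR adjusted p = 0.0659) and Abcg4 (-0.41, edgeR adjusted p = 0.248) were not called. Under 12 alternatives, Pltp gained a call in 4 and Abcg4 in 2. The comparisons share the non-injured libraries. Fitted on the syngeneic and non-injured libraries alone, no gene of the 10 was called, and without syngeneic replicate 3 only Abca1 and Ch25h were (2.54% of all genes called higher).

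Markers of several cell types moved with these genes. Of all tested genes, 16.6% were called higher in SCI and 9.26% lower, and the marker counts are to be read against these shares. All 12 microglial markers were higher in SCI (median log2 fold change 2.14), with a summed level of 349 to 494 CPM in non-injured cord and 1676 to 1991 in SCI. All 12 markers of phagocytic myeloid cells rose (median 5.95), from 927 to 1090 CPM in non-injured cord to 4190 to 5704 in SCI. In the syngeneic libraries these sums were 1068, 830 and 1781 CPM for microglia and 2284, 1799 and 5440 for phagocytes, so replicates 1 and 2 were again the lowest. In the allogeneic libraries they ran from 1672 to 2286 and from 4031 to 8095. No marker on either list was at 0 in these libraries, and their part in the results was not tested. Fibroblast and meningeal markers were higher in 10 of 10 (median 2.80), those of blood monocytes and neutrophils in 8 of 10 (median 2.01), and those of astrocytes in 7 of 10 with 1 lower (median 0.58). The astrocyte calls fell from 8 to 4 without SCI replicate 2 or non-injured replicate 2 and to 5 without SCI replicate 3. The summed fibroblast level was 375, 356 and 1401 CPM in the syngeneic libraries, 711 to 1974 in the allogeneic ones, 1499 to 2105 in SCI and 185 to 308 in non-injured cord. The summed astrocyte level was 12059, 10208 and 14300 CPM in the syngeneic libraries, 12752 to 15940 in the allogeneic ones, 13902 to 15528 in SCI and 6927 to 8510 in non-injured cord. For both, syngeneic replicates 1 and 2 were the lowest of the 9 injured libraries, and their part in the results was not tested either. The summed level of blood monocyte and neutrophil markers was 53.2, 54.8 and 79.0 CPM in the syngeneic libraries, all below the other injured ones. It was 84.5 to 125.8 in the allogeneic libraries and 97.7 to 119.0 in SCI. Neuron markers were lower in 7 of 10. Their summed level was 10550, 11578 and 8551 CPM in the syngeneic libraries, all above the other injured ones. It was 7113 to 8413 in the allogeneic libraries, 6762 to 8320 in SCI and 11984 to 13486 in non-injured cord. Oligodendrocyte markers were lower in 7 of 12, and that count fell to 2, 1 and 4 without SCI replicates 1, 2 and 3 and to 3 without non-injured replicate 3. Calls over all tested genes also fell without SCI replicate 2 or 3, as given in the last paragraph. The falls for astrocyte and oligodendrocyte markers are to be read against this. All-gene calls without SCI replicate 1 or non-injured replicate 2 or 3 are not given here.

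**Figure D4:**
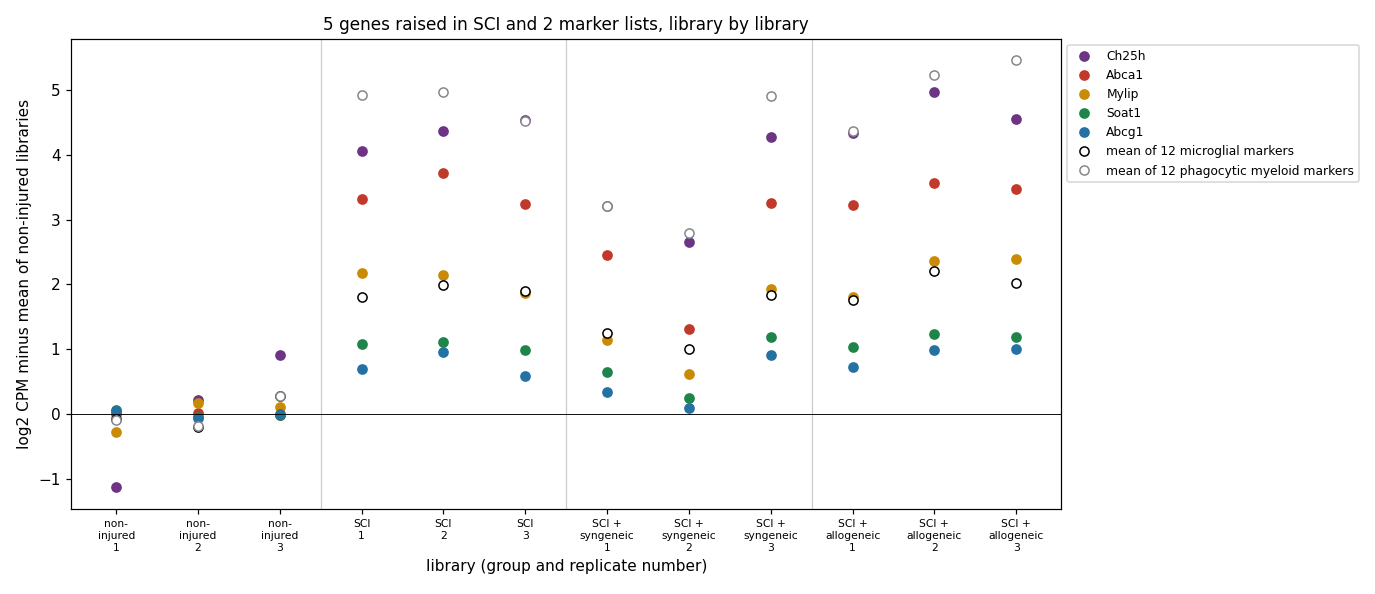
Log2 CPM of the 5 genes called higher in SCI (filled) and the means of 12 microglial and 12 phagocytic myeloid markers (open), each relative to the mean of the non-injured libraries, in all 12 libraries. Syngeneic replicates 1 and 2 lie below every SCI and allogeneic library for all 7 measures. The share of all tested genes with this order was not counted.

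By the closeness of its profile across 12 libraries, Abca1 was nearest to Hacd4 (root mean square difference of centred log2 CPM 0.170), Pik3ap1 (0.176), Cnr2 (0.192), Fcrls (0.192) and Themis2 (0.199), among 13747 genes. Fcrls is on the microglial marker list. Abcg1 was nearest to Nectin2 (0.0862), Tpp1 (0.0870), Colgalt1 (0.0914), Ski (0.0934) and Tmem206 (0.0943). In SCI against non-injured, the log2 fold changes of the first 5 ran from 3.12 to 3.88, and of the second 5 from 0.66 to 0.85.

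The wider pathway was read from 5 lists, whose genes exclude the 10, and whose counts are to be read against the 16.6% of all genes called higher and 9.26% called lower. In SCI against non-injured, 7 of 20 other LXR partners and targets were higher and 1 was lower (median 0.29). Among them Lpl, a lipoprotein lipase, rose by 3.98 (156 against 9.88 CPM) and Apoe by 2.57 (7353 against 1236 CPM), with edgeR adjusted p of 0.000315 and 0.00158. Srebf1, a lipogenic regulator and LXR target, rose by 1.40 (161 against 61.2 CPM; adjusted p = 0.000737). Of 22 sterol transport genes, 7 were higher and 2 lower, with Abca9 at 2.04, Clu at 1.10 and Soat2, at very low levels, at 2.39.

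Lipoprotein and modified lipid uptake had 9 of 15 genes higher and 1 lower (median 1.51). Olr1, Trem2 and Cd68 rose by 5.08, 3.79 and 4.82 on the log2 scale; Cd68 is also on the phagocyte marker list. In the SREBP2 arm, 11 of 15 genes were lower and none higher (median -1.46), and 11 were also called without non-injured replicate 3, whose summed level for this list (3767 CPM) lay above the other two (2304 and 2104 CPM). Examples were Mvd at -1.89 and Fdft1 at -1.42. Oxysterol and bile acid route enzymes were split, 3 of 10 higher and 3 lower: Gpr183, the receptor of an oxysterol made downstream of Ch25h, rose by 2.96, and Dhcr7, a late step of cholesterol synthesis, fell by 1.48. Exons of Srebf1 and Fdft1 overlap those of Rai1 and Ctsb on the opposite strand, so their counts are uncertain over the shared bases (109 and 774).

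None of the genes in the 5 lists was called by edgeR in syngeneic or allogeneic cord against SCI. Without syngeneic replicate 3, syngeneic against SCI gave calls for 8 of 15 uptake genes, 4 of 22 sterol transport genes, 2 of 20 LXR partners and targets, 2 of 15 genes of the SREBP2 arm and 1 of 10 oxysterol route genes, with 5.13% of all genes called. Against allogeneic cord, the same omission gave 8, 5, 5, 1 and 2 calls in these lists, with 6.98% of all genes called. Both sets of counts pool higher and lower calls. In the main fit, median log2 fold changes of syngeneic against SCI were -0.48, -0.12, -0.11, 0.52 and 0.16 in the same order of lists. The SREBP2 arm thus had a median opposite in sign to that of the uptake genes. With all libraries, 1 gene was called between the transplants, Soat2 (-1.66, edgeR adjusted p = 0.0270), at very low levels. Its adjusted p was 0.183, 0.104 and 0.114 without syngeneic replicate 1, syngeneic replicate 2 and allogeneic replicate 2. Apoe stood at 3314, 2708 and 8120 CPM in syngeneic libraries (log2 fold change against SCI -0.64, edgeR adjusted p = 0.494). Without syngeneic replicate 3, Apoe was lower than SCI (-1.32, edgeR adjusted p = 0.0482). Srebf1 stood at 124, 91.7 and 157 CPM (-0.38, adjusted p = 0.418).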

How the data were processed

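Per the labels' protocols, spinal cord RNA was extracted with RNeasy columns and DNase and made into TruSeq stranded poly(A) libraries. The authors deposited whole-number read counts per gene for 12 libraries, not normalized; per the submitters' processing notes they used GRCm38 and the tools featureCounts 1.5.1, STAR 2.5.1, FastQC 0.11.5, StringTie 1.3.3 and Trim Galore 0.4.1, listed without role or order. Annotation release and strand setting were not given in the sources used here. Groups came from the labels. Genes passing filterByExpr (minimum count 10, minimum total 15; 16527 genes) were fitted with edgeR 4.0.16 in R 4.3.3: trimmed-mean scaling, robust quasi-likelihood, 1 mean a group over all 12 libraries, 8 residual degrees of freedom, two-sided tests, threshold 0.05 after Benjamini-Hochberg. The 6 comparisons are those of the 4 groups. CPM used scaled totals; log2 CPM used a prior count of 2. Alternatives were DESeq2 1.42.0, limma 3.58.1 voom, other scalings, no filter, only the groups compared, and each library left out. The 10 genes, the lists and the rule for named genes (the 10; per list up to 3 of smallest p, with Apoe and Srebf1 always; the 5 nearest in profile to Abca1 and Abcg1) were chosen with earlier results of these data known; some genes the rule names are not reported here. No library was left out of the main results.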

Additional observations from a re-analysis of the deposited data

How the results depend on the processing

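No paired analysis was possible because the replicate numbers were given in accession order and pair nothing. Of 720 values of the 10 genes under alternatives, 655 kept direction and side of the threshold, 18 gained a call, 16 lost one and 31 changed sign, the last all in genes not called. Genes of the 10 called in SCI against non-injured ranged from 4 to 6 with a library left out, in allogeneic against non-injured from 5 to 7, in syngeneic against SCI from 0 to 4, in syngeneic against allogeneic from 0 to 5, and in syngeneic against non-injured from 2 to 5. For the last, limma-voom gave 2 and the fit of only the 2 groups 0, where 4 were called. In that comparison 2 were called without syngeneic replicate 3 or without any one non-injured library. Calls over all genes also changed under the settings named in the last paragraph. The ranges for the 10 genes are to be read against those calls and are not particular to these genes.

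Sign changes under other tools were small. In SCI against non-injured, Nr1h2 was 0.060 with library totals only, 0.0016 with limma-voom and 0.0046 with the 2 groups. In allogeneic against SCI, Abca1 was 0.0029 with RLE factors, 0.0031 with DESeq2 and 0.0044 with limma-voom, and Pltp -0.0026 with limma-voom. In syngeneic against non-injured, Abcg4 was -0.0079 with RLE factors, -0.034 with no filter, -0.0080 with DESeq2 and -0.021 with the 2 groups, and Nr1h2 0.0067 with library totals. With a library left out, Nr1h2 ran from -0.060 to 0.076 in SCI against non-injured and from -0.066 to 0.017 in syngeneic against SCI, and Cyp27a1 from -0.044 to 0.33 in the latter. In allogeneic against SCI, Abca1 ran from -0.092 to 0.15, Nr1h3 from -0.31 to 0.077, Pltp from -0.24 to 0.30 and Srebf1 from -0.0081 to 0.27. Cyp27a1 ran from -0.26 to 0.11 in syngeneic against allogeneic and from -0.51 to 0.048 in allogeneic against non-injured. In syngeneic against non-injured, Nr1h3 ran from -0.082 to 0.25, Nr1h2 from -0.10 to 0.055 and Abcg4 from -0.26 to 0.15. The cause was not tested.

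Over all genes, syngeneic against SCI gave 6 calls, with 18 unfiltered, 126 by DESeq2, 10 by limma-voom, 3 with the 2 groups, 866 without syngeneic replicate 3 and 0 without any other library of either group. Allogeneic against SCI gave 31, with 50 unfiltered, 71 by DESeq2, 17 with the 2 groups and 0 without any one SCI library. Syngeneic against allogeneic gave 101, with 358 by DESeq2, 21 with the 2 groups, 24, 25 and 1178 without syngeneic replicates 1, 2 and 3, and 46 without allogeneic replicate 2. Syngeneic against non-injured gave 883, with 1409 by DESeq2, 172 with the 2 groups, 1752 and 436 without syngeneic replicates 2 and 3, and 358 and 459 without non-injured replicates 1 and 2. Allogeneic against non-injured gave 4112, with 2738 with the 2 groups, 2613 without allogeneic replicate 2 and 2717 without non-injured replicate 1; with library totals only, 77.4% of its calls were higher, against 67.2%. SCI against non-injured gave 4266, with 2336 and 2747 without SCI replicates 2 and 3 and 2757 without non-injured replicate 1. Ch25h in non-injured cord rests on 32 counts in all, which limits its fold.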
